A study of Mus musculus with 4 samples.

Results

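The 9 genes Tgfb1, Tgfb2, Tgfb3, Tgfbr1, Tgfbr2, Tgfbr3, Smad2, Smad3 and Smad4 encode the ligands of transforming growth factor β (TGFβ), their receptors, and the Smad proteins that carry the signal to the nucleus. They were chosen by name among 22350 protein-coding genes, and open chromatin was examined at their transcription start sites (TSS, within 1000 bp of any annotated transcript start) and over each gene body with 20 kb to each side. These loci held 20 of the 19648 open regions of vehicle-treated cells, 41 of the 38532 regions of TGFβ-treated cells and 36 of the 26732 regions of a 10 min experiment. Open chromatin was mapped by ATAC-seq, in which the Tn5 transposase cuts accessible DNA, in NMuMG cells, an established epithelial line from normal mouse mammary gland.

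There were 4 samples, 1 per group, all of the same cell line without any engineered allele. In complete medium, cells received vehicle or TGFβ1 at 5 ng per ml for 2 h, and each group has its own peak list. In the other experiment, cells went without serum and insulin for 6 h before vehicle or TGFβ1 at 5 ng per ml for 10 min. The labels of both 10 min samples name 1 and the same list, so treatment was not compared at 10 min, and that list is called the 10 min list. Its name refers to TGFβ, but which of the samples it was called from is not settled. It differs from the other lists in medium and time, and possibly in treatment, and these cannot be told apart. The labels of the TGFβ sample at 10 min conflict on its time, and its title was followed.

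A list gives the position of each peak and a score from 540 to a cap of 1000, with no read count, so the sequencing depth is unknown from the files. Each condition in complete medium had 1 list, and the 10 min experiment had 1 in all, so no test between conditions was possible. Shares are given with 95% Wilson intervals and ratios with exact 95% binomial intervals. These reflect counting error only, and regions of 1 locus are not independent. Among 10 epithelial genes, 5 had a TSS region in the vehicle list (Krt8, Krt18, Krt19, Ocln and Grhl2), 6 with TGFβ (these 5 and Cldn4) and 6 at 10 min (these 5 and Cdh1), whereas Epcam, Krt7 and Esrp1 had none in any list. Of 10 marker genes of blood, endothelium, muscle, liver, glia, neurons and islets, 0 had a TSS region in any list.

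TGFβ ligands are secreted as latent dimers. Once released, they bind the type II receptor Tgfbr2, a serine/threonine kinase that phosphorylates the type I receptor Tgfbr1, while Tgfbr3 (betaglycan) is a coreceptor that presents ligand and is known above all for its help with the TGFβ2 ligand. Activated Tgfbr1 phosphorylates Smad2 and Smad3, which join the common partner Smad4 and enter the nucleus. In mammary epithelium the pathway is known for restraining proliferation and for driving epithelial to mesenchymal transition.

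The sequences of 7 regions that were called with TGFβ but not with vehicle are given first, since the differences between the lists lie in regions of this kind. Each is the 300 bp at the centre of the region in the TGFβ list, read on the + strand of mm9 (NCBIM37), and capitals mark matches to the AP-1 motif TGAGTCA or the SMAD motifs CAGACA and GTCTAGAC on either strand. The first comes from the Tgfb3 start site, and the next 2 are the distal regions that hold matches of both kinds. The last 4 were chosen after their values were seen: 3 are the distal regions at the score cap, and the final one is the highest-scoring region with an AP-1 match below the cap. The Tgfb2 start-site region overlaps an untranslated part of exon 1, and its sequence is not printed.
Tgfb3 start site, chr12:87420353-87420652: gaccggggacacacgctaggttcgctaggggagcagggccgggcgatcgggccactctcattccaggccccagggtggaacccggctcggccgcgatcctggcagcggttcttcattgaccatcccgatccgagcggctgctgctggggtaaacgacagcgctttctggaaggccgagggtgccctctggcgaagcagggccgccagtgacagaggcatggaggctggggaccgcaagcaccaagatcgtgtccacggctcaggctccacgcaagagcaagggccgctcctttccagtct
Tgfb2 downstream flank, chr1:188428110-188428409: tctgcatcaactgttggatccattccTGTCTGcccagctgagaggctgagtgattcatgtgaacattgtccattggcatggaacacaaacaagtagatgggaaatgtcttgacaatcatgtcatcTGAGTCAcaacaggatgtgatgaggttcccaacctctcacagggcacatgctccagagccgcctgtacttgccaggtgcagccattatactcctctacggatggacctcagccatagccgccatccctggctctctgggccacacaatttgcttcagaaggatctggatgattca
Smad3 intron 1, chr9:63569509-63569808: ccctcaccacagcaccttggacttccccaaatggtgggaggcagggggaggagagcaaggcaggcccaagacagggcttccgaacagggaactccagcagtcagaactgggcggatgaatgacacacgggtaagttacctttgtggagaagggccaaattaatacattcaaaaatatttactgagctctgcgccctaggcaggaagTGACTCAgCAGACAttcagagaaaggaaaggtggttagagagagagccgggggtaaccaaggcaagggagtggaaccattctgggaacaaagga
Tgfb2 intron 1, chr1:188480238-188480537: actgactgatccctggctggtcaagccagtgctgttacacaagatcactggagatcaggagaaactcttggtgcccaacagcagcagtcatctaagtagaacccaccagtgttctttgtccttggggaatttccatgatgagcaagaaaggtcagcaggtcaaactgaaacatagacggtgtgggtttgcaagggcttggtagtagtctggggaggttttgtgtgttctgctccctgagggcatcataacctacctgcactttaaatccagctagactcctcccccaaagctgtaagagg
Tgfbr3 downstream flank, chr5:107516346-107516645: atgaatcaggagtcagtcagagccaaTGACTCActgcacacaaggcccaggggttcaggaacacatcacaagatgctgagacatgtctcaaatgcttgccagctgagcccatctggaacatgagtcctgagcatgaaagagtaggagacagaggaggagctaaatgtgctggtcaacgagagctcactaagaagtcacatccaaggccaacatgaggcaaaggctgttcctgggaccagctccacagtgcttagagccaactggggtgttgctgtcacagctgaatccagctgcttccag
Smad3 intron 1, chr9:63549016-63549315: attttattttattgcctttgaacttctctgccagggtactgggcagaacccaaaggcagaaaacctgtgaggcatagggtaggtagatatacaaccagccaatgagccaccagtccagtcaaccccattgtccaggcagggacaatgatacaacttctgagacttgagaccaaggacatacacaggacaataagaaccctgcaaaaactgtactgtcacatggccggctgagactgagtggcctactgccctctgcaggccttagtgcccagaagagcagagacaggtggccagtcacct
Smad3 intron 1, chr9:63566601-63566900: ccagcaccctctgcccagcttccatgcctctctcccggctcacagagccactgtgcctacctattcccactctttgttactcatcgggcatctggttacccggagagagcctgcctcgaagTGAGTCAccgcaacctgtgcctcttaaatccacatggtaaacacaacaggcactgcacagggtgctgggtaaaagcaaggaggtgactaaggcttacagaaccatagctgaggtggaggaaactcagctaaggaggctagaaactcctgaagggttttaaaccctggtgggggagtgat

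In the Tgfb2 flank the AP-1 match starts at base 126 and the CAGACA match, on the opposite strand, at base 27. In the first Smad3 sequence they lie side by side, with the AP-1 match at base 207 and CAGACA at base 215. The Tgfb3 start site and the capped regions in Tgfb2 and Smad3 held neither motif in these 300 bp.

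With TGFβ in complete medium, 6 of the 9 genes had more open regions than with vehicle, Smad2, Smad4 and Tgfb1 had equal numbers, and 0 had fewer. Across all protein-coding genes 48.2% (10783) had more TGFβ than vehicle regions. All 10783 were among the 16587 genes with a vehicle or TGFβ region, as were the 9 genes, so the share is higher on that base. These counts depend on the flank of 20 kb. With 50 kb, 8 of the 9 genes had more TGFβ regions, and the shares over all genes given here are for 20 kb only. Smad3 went from 4 regions to 14, Tgfb2 from 2 to 5, Tgfb3 from 0 to 3, Tgfbr3 from 1 to 4, Tgfbr2 from 3 to 4 and Tgfbr1 from 1 to 2. The ratio over the loci was 2.05 (1.17 to 3.69), close to the 1.96 (1.93 to 2.00) of the whole lists. No departure of the loci from the whole lists was seen, but the wide interval cannot exclude one. By role the totals went from 8 to 14 for ligands (ratio 1.75, 0.685 to 4.82), from 5 to 10 for receptors (2.00, 0.623 to 7.46) and from 7 to 17 for Smads (2.43, 0.957 to 6.93), with intervals that overlap. The median difference per gene was 1 region, against 0 over all genes and 1 over the 16587 genes with a vehicle or TGFβ region. The windows of the 9 genes were longer (median 104.8 kb against 55.4 kb over all genes), and per 100 kb their median difference was 0.983 regions, below the 1.40 of genes with such a region.

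The excess was also counted in lists of equal length. This cut fixes the ratio of the whole lists at 1. It keeps TGFβ regions from a score of 904 but vehicle regions from 540. A ratio near 1 at the loci therefore cannot show whether they gained regions. When only the top 19648 TGFβ regions by score were kept, the length of the vehicle list, the loci had 20 vehicle and 19 TGFβ regions, a ratio of 0.95, and 2 genes still had more TGFβ regions, Smad3 (6 against 4) and Tgfbr3 (2 against 1). In these lists 2 genes had fewer TGFβ regions, Tgfb1 (3 against 6) and Tgfbr2 (2 against 3), which was true of 0 genes in the full lists. Smad3 alone carried 10 of the 21 additional regions. The other 8 genes had 16 vehicle and 27 TGFβ regions, a ratio of 1.69 (0.877 to 3.35).

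**Figure D1:**
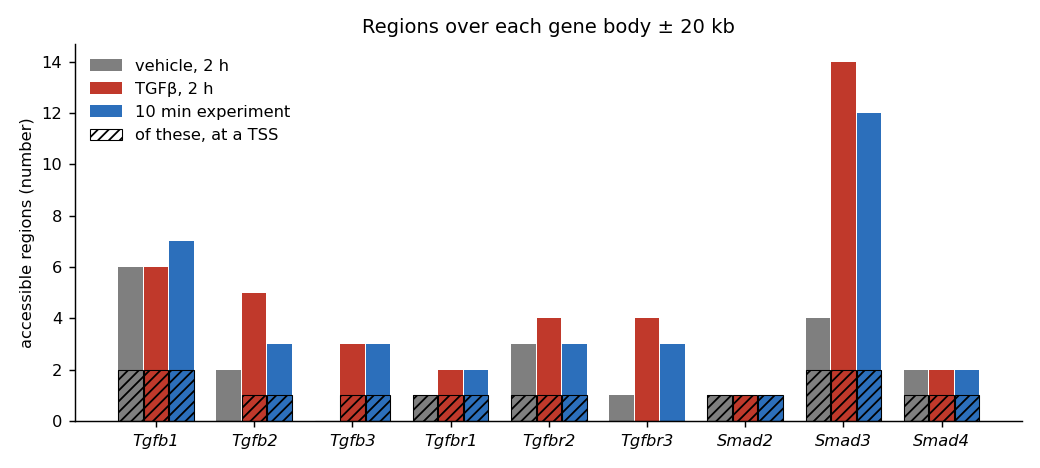
Number of open regions within each gene body and 20 kb to each side (y axis) for the 9 genes (x axis) in the vehicle, TGFβ and 10 min lists (1 list each, no error bars), with the regions at a TSS of the gene hatched. Smad3 stands out with 14 regions in the TGFβ list against 4 in the vehicle list, whereas Tgfb1, Smad2 and Smad4 had equal numbers in these 2 lists.

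TSS regions of the 9 genes numbered 8 with vehicle, 10 with TGFβ and 10 at 10 min. In the vehicle list 6 of the 9 genes had a TSS region (all protein-coding genes 41.0%), with TGFβ 8 did (47.6%) and at 10 min 8 did (46.3%). Tgfb2 and Tgfb3 had a TSS region with TGFβ but not with vehicle, which held for 7.24% of all protein-coding genes, and Tgfbr3 had none in any list. Both start-site regions were lost when only peaks at or above the median score were kept. Their scores, 677 at Tgfb2 and 722 at Tgfb3, also lay below the 904 needed in the TGFβ list cut to the vehicle length. Regions away from any TSS, called distal, numbered 10 with vehicle and 28 with TGFβ, a ratio of 2.80 (1.32 to 6.46) beside 2.55 (2.49 to 2.60) in the whole lists. Without Smad3 they numbered 8 and 16.

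**Figure D2:**
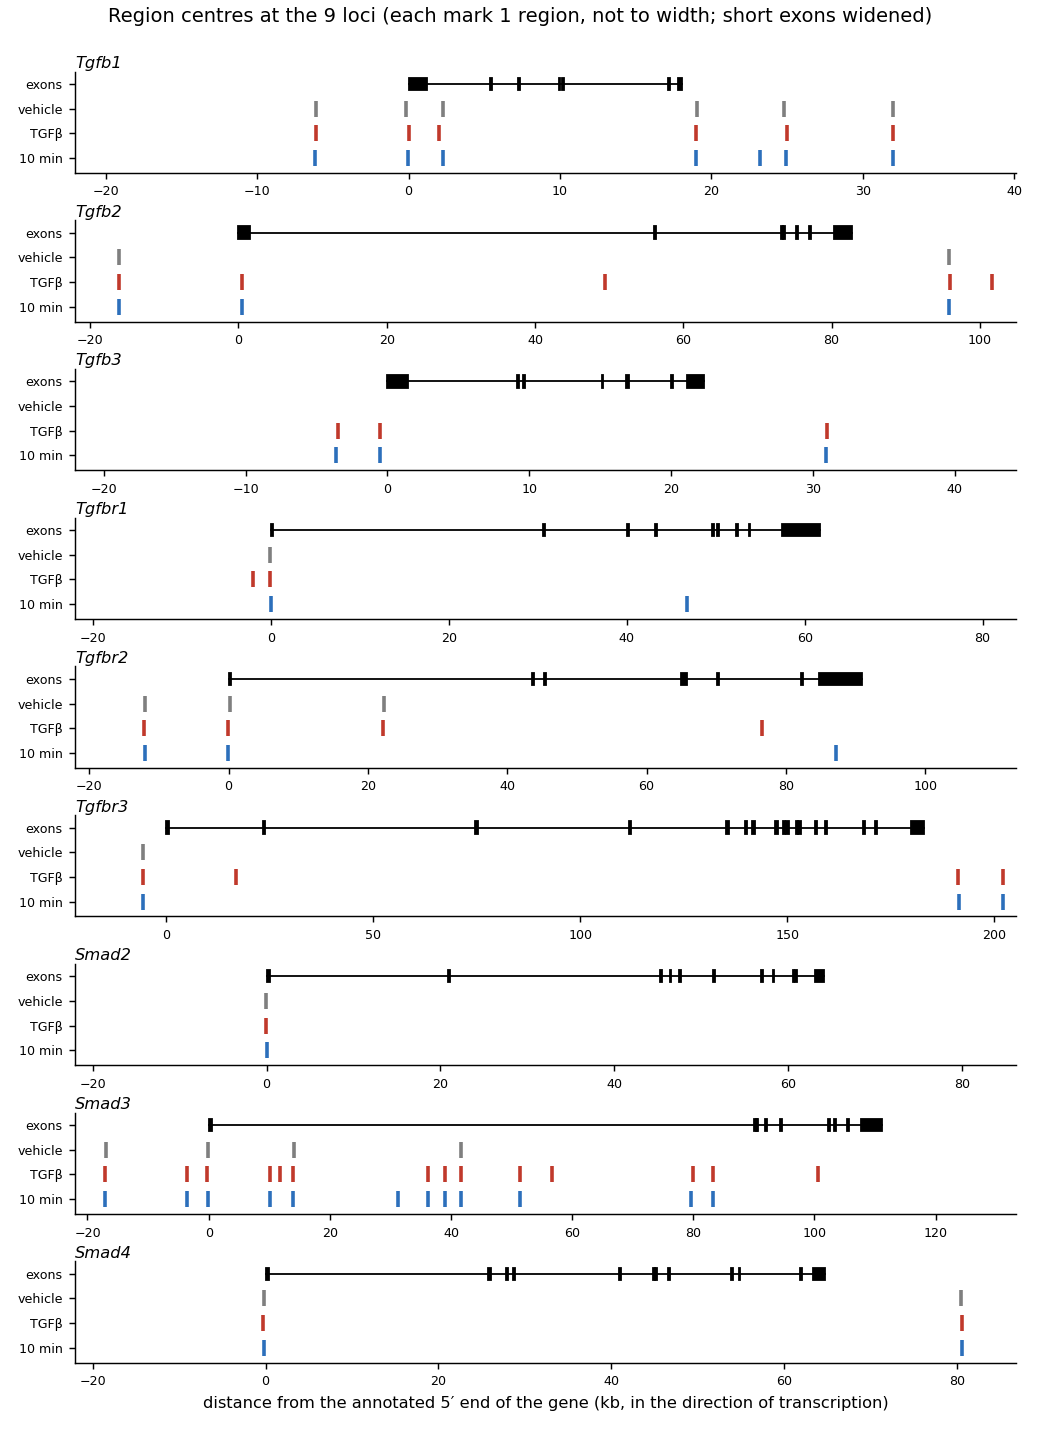
Centres of the open regions along each of the 9 loci (x axis, kb from the annotated 5′ end in the direction of transcription), with exons in black and 1 row per list. Start sites are marked in every list at 6 genes, in the TGFβ and 10 min lists at Tgfb2 and Tgfb3, and in none at Tgfbr3.

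Among the ligand genes, Tgfb1 (ENSMUSG00000002603.9, chr7:26472021-26490096, + strand), which encodes the most widely expressed ligand, had the same 6 regions with vehicle and TGFβ, and the 10 min list held these and 1 more. At its 5′ end the region was chr7:26471720-26471996 (277 bp, score 657) with vehicle, chr7:26471747-26472292 (546 bp, 666) with TGFβ and chr7:26471747-26472282 (536 bp, 666) at 10 min. The TGFβ region was joined from 2 intervals. With a minimum width of 300 bp, Tgfb1 kept a TSS region with vehicle and at 10 min but not with TGFβ. An additional TSS region in intron 1, within 1000 bp of an alternative start, was present in every list with scores of 695, 776 and 628. Of the remaining regions, 1 lay within 1000 bp of a start of the upstream neighbour B9d2 and 1 of the downstream neighbour Ccdc97. Another (chr7:26496484-26497200 with vehicle) lay inside Ccdc97. These regions cannot be assigned to Tgfb1 by position. The region found at 10 min alone lay downstream of the gene at chr7:26495042-26495370 and held 3 SMAD matches.

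Tgfb2 (ENSMUSG00000039239.8, chr1:188447065-188529871, − strand) had 2 vehicle, 5 TGFβ and 3 regions at 10 min. Both vehicle regions flanked the gene and were present in all lists, and the region of chr1:188433833-188434264 was at the score cap in each. The other vehicle region, upstream of the gene, lay inside the neighbour Rrp15, so it cannot be assigned to Tgfb2 by position. The start site was open with TGFβ (chr1:188529126-188529585, 460 bp, score 677, in an untranslated part of exon 1) and at 10 min (chr1:188529035-188529634, 600 bp, 757). It was not called with vehicle. The other 2 TGFβ-only regions, in intron 1 (chr1:188480244-188480531, 288 bp, at the cap of 1000) and in the downstream flank (chr1:188428075-188428445, 371 bp, score 877), were absent at 10 min as well. Thus 1 of the 3 TGFβ-only regions at Tgfb2 was also found in the 10 min list.

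Tgfb3 (ENSMUSG00000021253.6, chr12:87397694-87419991, − strand) had 0 vehicle regions, 3 TGFβ regions and 3 regions at 10 min, and all 3 were at the same places in both lists. The TSS region lay 0.512 kb upstream of the 5′ end (chr12:87420385-87420621, 237 bp, score 722) and was nearly the same at 10 min (chr12:87420386-87420631, 246 bp, 786). Another lay within 1000 bp of a start of the upstream neighbour 1700019E19Rik (chr12:87423392-87423602, score 666). The last lay downstream within Ttll5 (chr12:87388876-87389068, score 615) and held an AP-1 match. These regions were narrow, from 193 to 237 bp with TGFβ, and none reached a score above 722 there. Tgfb3 was the only one of the 9 genes without a vehicle region, and it lost its TGFβ start-site region when the TSS window was reduced to 200 bp or the minimum width was raised to 300 bp.

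Among the receptor genes, Tgfbr1 (ENSMUSG00000007613.9, chr4:47366094-47427803, + strand), encoding the type I receptor kinase, had a start-site region at the score cap in every list. It spanned 467 bp with vehicle (chr4:47365779-47366245), 611 bp with TGFβ (chr4:47365660-47366270) and 926 bp at 10 min (chr4:47365615-47366540). With TGFβ a second region of 306 bp was called 2.06 kb upstream (chr4:47363877-47364182, score 729), with 2 SMAD matches and no AP-1 match. At 10 min the second region was a different one, in intron 4 (chr4:47412783-47412994, score 573), with an AP-1 match.

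Tgfbr2 (ENSMUSG00000032440.5, chr9:115993415-116084383, − strand), encoding the type II receptor kinase that binds ligand, had the widest start-site regions of the receptors. They spanned 1112 bp with vehicle (chr9:116083631-116084742, score 1000), 1337 bp with TGFβ (chr9:116083840-116085176, 1000) and 1301 bp at 10 min (chr9:116083876-116085176, 894). The vehicle and TGFβ regions here were each joined from 2 intervals. A region in intron 1 was shared by vehicle (chr9:116061791-116062398, score 822) and TGFβ (score 861) and was the single vehicle region at the 9 loci that was absent at 10 min. The 1 TGFβ-only region, in intron 5 (chr9:116007677-116007837), was 161 bp wide, close to the minimum width, with a score of 609, the lowest among TGFβ regions of the loci.

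Tgfbr3 (ENSMUSG00000029287.8, chr5:107535589-107718648, − strand), the coreceptor, had no start-site region in any list. Its 1 vehicle region, 5.78 kb upstream (chr5:107724349-107724507, 159 bp, score 541), was wider and scored higher with TGFβ (327 bp, 906) and at 10 min (431 bp, 799), although scores are not calibrated between lists. With TGFβ, 2 more regions lay downstream of the gene, chr5:107516243-107516749 at the score cap and chr5:107527148-107527534 with a score of 745. Both held an AP-1 match and both were present at 10 min. The last, in intron 1 (chr5:107701770-107702001, score 689), was found with TGFβ alone and held a SMAD match.

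Among the Smad genes, Smad2 (ENSMUSG00000024563.9, chr18:76401234-76465385, + strand) and Smad4 (ENSMUSG00000024515.7, chr18:73798663-73863434, − strand) kept the same regions in every list. Smad2 had a single region, over its 5′ end, at the score cap in each list (824 bp at chr18:76400776-76401599 with vehicle, 861 bp with TGFβ and 1549 bp at 10 min). At the Smad4 5′ end the region scored 739 with vehicle (552 bp, chr18:73863380-73863931), 1000 with TGFβ (652 bp) and 868 at 10 min (580 bp). Smad4 had 1 further region, in its downstream flank, again in all lists. Inside the gene body of either gene no region was called beyond the 5′ end.

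Smad3 (ENSMUSG00000032402.6, chr9:63494574-63605801, − strand) differed from both. It had 4 vehicle, 14 TGFβ and 12 regions at 10 min, which is 2.65, 9.26 and 7.93 regions per 100 kb of the window. A gain of at least 10 regions was seen at 43 protein-coding genes, 0.192% of all. Per 100 kb the gain was 6.61, which 1.30% of protein-coding genes equalled or exceeded. The 4 vehicle regions were all retained with TGFβ and at 10 min: the 5′ end (chr9:63605710-63606213, score 981), a place in intron 1 near an alternative start (chr9:63591560-63592017, 958), another place in intron 1 (chr9:63563998-63564271, 707) and the upstream flank (chr9:63622689-63622946, 640).

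Of the 10 TGFβ-only regions at Smad3, 8 lay in intron 1, which at 89.6 kb makes up 80.5% of the gene. Intron 1 thereby held 2 regions with vehicle, 10 with TGFβ and 9 at 10 min. The other 2 were in intron 5 (chr9:63505063-63505268, score 688) and 3.57 kb upstream of the 5′ end (chr9:63609243-63609505, score 817), the latter with a SMAD match. Of the 10, 7 were also in the 10 min list. The region at the score cap (chr9:63548840-63549492, 653 bp) was not among these 7. The widest (chr9:63525371-63526279, 909 bp joined from 2 intervals, score 883) was. AP-1 matches were held by 6 of the 10 (60.0%, 31.3 to 83.2%) and SMAD matches by 2.

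**Figure D3:**
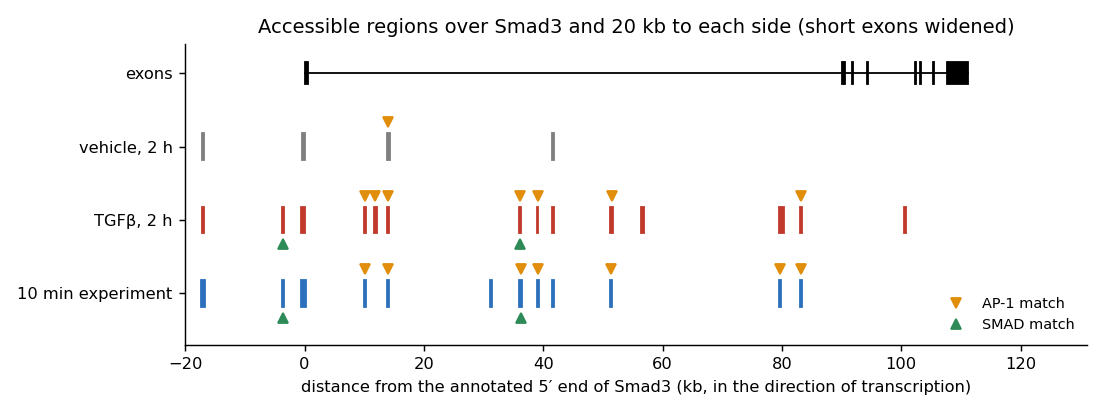
Open regions over Smad3 and 20 kb to each side (x axis, kb from the annotated 5′ end in the direction of transcription), drawn to width as bars in 1 row per list, with exons above and triangles for regions that hold an AP-1 or SMAD match in their central 300 bp. The TGFβ row has 10 bars in intron 1, the 10 min row 9 and the vehicle row 2.

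To ask which open regions were specific to a list, overlaps of at least 1 bp were counted. Of the 41 TGFβ regions at the 9 loci, 21 had no vehicle counterpart (51.2%, 36.5 to 65.8%), beside 52.4% of all TGFβ regions. In the other direction, 0 of the 20 vehicle regions lacked a TGFβ counterpart (0 to 16.1%), beside 6.44% of all vehicle regions. Of the 21 TGFβ-only regions, 12 were in introns, 4 in downstream flanks, 2 in upstream flanks, 2 at start sites of the genes themselves and 1 at the start of a neighbouring gene. They were narrower than the shared ones, with a median width of 306 bp against 481 bp and a median score of 745 against 1000, and the whole TGFβ list showed the same order (281 against 546 bp, 742 against 1000). In lists of equal length 26.3% of TGFβ regions lacked a vehicle counterpart and 30.0% of vehicle regions lacked a TGFβ one. That cut shortens the TGFβ list and leaves the vehicle list whole, so these shares cannot show whether the pattern is one-sided.

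The regions gained with TGFβ in complete medium were compared with those of starved cells at 10 min. Of the 21 TGFβ-only regions, 13 were also in the 10 min list (61.9%, 40.9 to 79.3%), beside 31.5% of all TGFβ-only regions (30.9 to 32.2%). Smad3 contributed 7 of these 13, and at the other genes 6 of 11 were present (54.5%, 28.0 to 78.7%), an interval that includes the genome share. All 3 at Tgfb3, 2 of 3 at Tgfbr3 and 1 of 3 at Tgfb2 were among them, against 0 of 1 at Tgfbr1 and 0 of 1 at Tgfbr2. Read from the 10 min side, 32 of its 36 regions were in the TGFβ list (88.9%, 74.7 to 95.6%), beside 85.9% of all 10 min regions. In the vehicle list were 19 (52.8%, 37.0 to 68.0%), beside 64.1%. In neither list were 4 (11.1%, 4.41 to 25.3%), beside 12.2%. Each of these intervals includes the share of the whole list. The 10 min list carries TGFβ in its name but cannot be assigned to vehicle or TGFβ. The presence of a region in it therefore does not date a response to TGFβ.

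**Figure D4:**
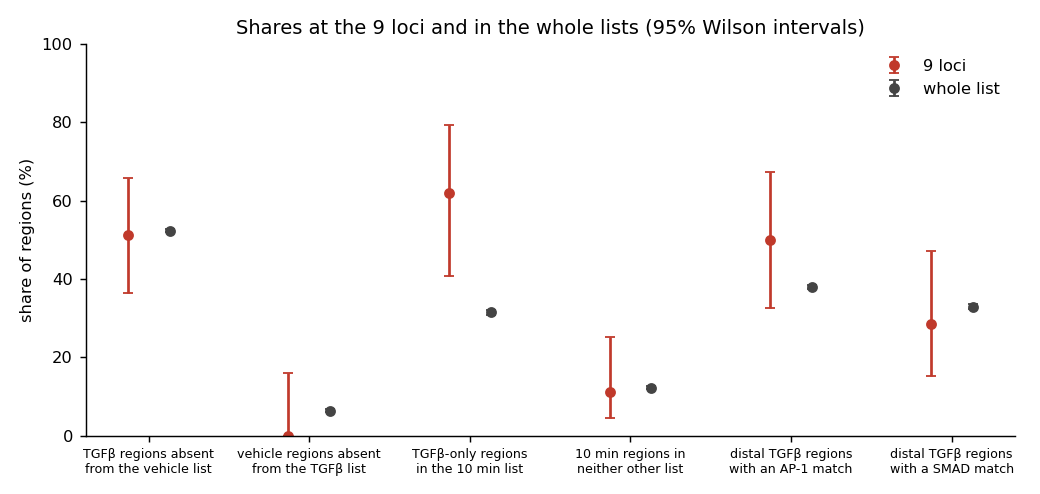
Shares of regions (y axis, %) of 6 kinds (x axis) at the 9 loci as points with 95% Wilson intervals, each beside the share in the whole list. The share of TGFβ-only regions found at 10 min, 61.9% against 31.5%, is the furthest apart of those plotted, and the share of TGFβ regions absent from the vehicle list, 51.2% against 52.4%, lies at its background.

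When regions of the 3 lists were joined wherever they overlapped, 45 places at the 9 loci were open in at least 1 list. Of these, 19 were in all lists (42.2%, beside 39.4% of 42559 places genome-wide) and 13 in the TGFβ and 10 min lists (28.9% beside 14.9%). The TGFβ list alone held 8 (17.8% beside 31.9%) and the 10 min list alone 4 (8.89% beside 7.31%). The vehicle and TGFβ lists shared 1 that was absent at 10 min (2.22% beside 3.96%). Smad3 held 7 of the 13 places in the TGFβ and 10 min lists and 3 of the 8 in the TGFβ list alone. Those 13 and 8 places are the TGFβ-only regions already described, so they are not a separate result. The 4 found at 10 min alone lay at Tgfb1, Tgfbr1, Tgfbr2 and Smad3. Vehicle alone held 0 of the 45 places, beside 1.51% genome-wide.

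Motif matches were counted in the central 300 bp of distal regions, on both strands. The AP-1 motif TGAGTCA was held by 14 of the 28 distal TGFβ regions (32.6 to 67.4%), beside 38.0% of all distal TGFβ regions, and by 10 of the 18 that were TGFβ-only (55.6%, 33.7 to 75.4%), beside 36.8%. A SMAD motif, CAGACA or GTCTAGAC, was held by 8 of 28 (28.6%, 15.3 to 47.1%), beside 33.0%, and by 5 of the 18 TGFβ-only (27.8%, 12.5 to 50.9%), beside 34.8%. The ETS motif CCGGAAG was held by 2 of 28 (7.14%, 1.98 to 22.7%), beside 1.97%, 1 downstream of Tgfb1 and 1 in Smad3 intron 1. The AP-1 and SMAD intervals include the share of the whole list, and the lower bound for ETS, which rests on 2 regions, lies just above it.

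In the other lists the AP-1 motif was held by 4 of 10 distal vehicle regions (beside 41.1%) and 13 of 23 distal regions at 10 min (56.5%, 36.8 to 74.4%, beside 36.0%). The last interval lies just above its background. The ETS motif was held by 1 of 10 distal vehicle regions (1.79 to 40.4%, beside 2.39%) and by 3 of 23 at 10 min (4.54 to 32.1%, beside 2.16%), an interval above its background that rests on 3 regions, at Tgfb1, Tgfbr2 and Smad3. Among the 10 min regions, Smad3 alone held 10 of the 23 and 6 of the 13 with an AP-1 match, and neighbours in 1 gene are not independent.

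The 3 genes without a vehicle start-site region had the lowest ratio of observed to expected CpG dinucleotides at their 5′ end, a description made after the values were seen. From 250 bp upstream to 50 bp downstream of the outermost 5′ end, this ratio was 0.463 at Tgfb2, 0.516 at Tgfb3 and 0.556 at Tgfbr3, and from 0.694 at Tgfb1 to 1.13 at Smad2 in the other 6. Over all protein-coding genes the median was 0.786 with and 0.294 without a vehicle TSS region, so the 9 genes followed the order of the genome. GC content separated them less, at 54.0% for Tgfb2, 48.7% for Tgfb3 and 66.7% for Tgfbr3 against 67.7% to 77.0% in the others.

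**Figure D5:**
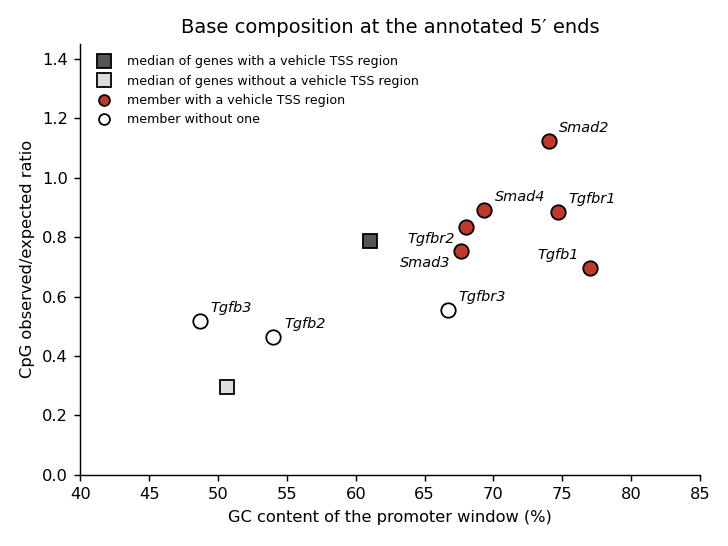
Ratio of observed to expected CpG (y axis) against GC content (x axis, %) in the promoter windows of the 9 genes, with squares for the medians of all protein-coding genes with and without a vehicle TSS region. The 3 open circles, genes without a vehicle TSS region, lie lowest at 0.463, 0.516 and 0.556.

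Other genes of the pathway were counted in the same way. A list of 40 was made of further ligands, receptors, Smads and proteins that store, release or relay TGFβ. Of these, 25 had more TGFβ than vehicle regions, 14 had equal numbers and 1 (Ltbp3, a latent TGFβ binding protein) had fewer. More TGFβ regions were found at 48.2% of all genes, and at 10783 of the 16587 with a vehicle or TGFβ region. The totals were 82 vehicle, 142 TGFβ and 107 regions at 10 min, and the median difference of 1 region per gene equalled that of the 9 genes. It also equalled that of the 10 markers of other cell types, of which 7 had more TGFβ regions and 0 fewer (3 vehicle and 12 TGFβ regions in all), so these values are not particular to the pathway. The largest was Ltbp1, another latent TGFβ binding protein, with 9 vehicle, 21 TGFβ and 10 regions at 10 min, a gain of 12. In the vehicle, TGFβ and 10 min lists a TSS region was called for 25, 26 and 27 of the 40, beside 41.0%, 47.6% and 46.3% of all genes. It was present with TGFβ but not vehicle at Gdf11, a ligand, and Eng (endoglin), a coreceptor, and with vehicle but not TGFβ at Ltbp3.

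The limits on width and flank decided which regions were counted. The narrowest regions kept at the loci were 159 bp with vehicle, 161 bp with TGFβ and 185 bp at 10 min. Intervals dropped for being under 150 bp were 1 each at Tgfb1 (98 bp, TGFβ), Tgfbr2 (90 bp, vehicle), Tgfbr3 (116 bp, TGFβ) and Smad3 (80 bp, 10 min). The closest region beyond the 20 kb flanks lay 23159 bp from Tgfbr1 in the 10 min list, followed by 1 at 24242 bp from Tgfb1 in the TGFβ list. With flanks of 50 kb the loci held 30 vehicle regions, 60 TGFβ regions and 49 regions at 10 min, beside 20, 41 and 36 with 20 kb.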

How the data were processed

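Peak lists from 3 ATAC-seq conditions were used. Per the study's methods the authors trimmed reads, aligned them to mm9, called peaks with MACS2 2.1.2 (version per the submitters' processing notes) in the ENCODE ATAC-seq pipeline and kept those reproducible between replicates (irreproducible discovery rate, IDR). The deposited score is the authors' scaled IDR and was used only to rank regions within a list. What served as replicates is not settled by the labels, so 1 list stands for each condition. All intervals lay within mm9 chromosomes.

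Intervals under 150 bp were dropped, and those separated by less than 1000 bp were joined to 1 region, with the highest score. Genes came from GENCODE vM1 (mm9). A region counted as shared at 1 bp of overlap. Motifs were searched in the reference sequence of NCBIM37. Scripts used Python 3.11.15, pandas 2.3.3, numpy 2.4.6, scipy 1.17.1 and matplotlib 3.10.9, and region joining, overlap and intervals were tested on simulated data. The lists hold no read counts. Read totals per library given with the study, higher for vehicle than for TGFβ in complete medium, were not used here, and intervals cover counting only. No column was left without a sample group.

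The genes, lists and tests were chosen with earlier results of these data known. Coordinates are given for regions at start sites, TGFβ-only regions at the score cap and the widest others, and further ones where a result turns on them. Alternatives in width, joining, score, list length, flank, TSS window, overlap and motif window are described at the end.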

Additional observations from a re-analysis of the deposited data

How the results depend on the processing

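In all, 14 results were recomputed under 75 alternative values, of which 56 stayed within 1.5 times the reported count or within the counting interval and 19 moved. With a minimum width of 300 bp the loci had 11 vehicle and 26 TGFβ regions, and 33.3% and 66.7% of the 10 min regions were in the vehicle and TGFβ lists. With peaks at or above the median score of their list there were 7 vehicle, 16 TGFβ and 8 regions at 10 min, and 5 and 4 genes had a TSS region in the TGFβ and 10 min lists. Gene bodies without flanks held 9, 23 and 19 regions. In lists of equal length the loci had 19 TGFβ regions, the ratio was 0.95, 2 genes had more TGFβ regions, 26.3% of TGFβ and 30.0% of vehicle regions lacked a counterpart, and 57.7% of the 10 min regions were in the TGFβ list. The cause of these shifts was not tested, beyond the fewer regions each choice keeps. Without Smad3, an alternative chosen after seeing the data, 27 TGFβ regions remained. The ratio lay between 1.69 and 2.56 in every alternative other than equal list length. No paired analysis was possible because the lists carry no replicate numbers and none could be left out in turn. Depth cannot be read from the lists, so a region that was not called may still be open below the detection limit.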
